A study of Mus musculus with 5 samples.

Results

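Cish, Socs2 and Socs3 encode cytokine-inducible feedback inhibitors, and the gene rows of these 3 symbols were followed here among the 6626 genes that the 5 deposited single-cell files have in common. They were described in each library and in cells classed by their leading islet hormone: insulin (Ins1 plus Ins2) for the beta class, glucagon (Gcg) for alpha, somatostatin (Sst) for delta and pancreatic polypeptide (Ppy) for gamma. The files hold dissociated, viable islet cells of C57BL/6 mice run on inDrop, in which each captured transcript carries a unique molecular identifier (UMI). The study set islets of pregnant mice and of mice after giving birth against islets of non-pregnant females, with 1 non-pregnant library, 2 pregnant libraries (pregnant 1 and pregnant 2) and 2 postpartum libraries (postpartum 1 and postpartum 2). The labels give no age, no day of gestation or lactation and no number of mice, and nothing in them says that libraries of a group came from separate animals, so every p-value below measures at most the spread between these libraries. All groups share the strain, and no transgene or drug is named.

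Cytokines of the prolactin, growth hormone and interleukin-6 families bind receptors that lack an enzyme of their own and work through Janus kinases (JAK), which phosphorylate STAT transcription factors. Cish, Socs2 and Socs3 are among the genes that STATs switch on, and their proteins carry an SH2 domain that docks on the phosphorylated receptor or kinase and a SOCS box that recruits a ubiquitin ligase, which closes a negative feedback loop. Cish and Socs2 are classed with STAT5 and the prolactin and growth hormone receptors, and Socs3 mainly with STAT3 and receptors that use gp130. In the islet, lactogens signal through the prolactin receptor of the beta cell, and this pathway is known for its part in the adaptation of beta cells to pregnancy.

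In GRCm38, Cish lies on the plus strand at chr9:107296026-107302784, Socs2 on the minus strand at chr10:95385362-95417180 and Socs3 on the minus strand at chr11:117966079-117970047 (GENCODE M21). Exons of Cish are overlapped on the other strand by the antisense gene Gm17041 and the pseudogene Gm17040, and whether the authors' counting used strand is not given in the sources used here. Gm17041 had 0 UMIs in the beta class of the non-pregnant library, and Gm17040 is not listed under that name in its file, so its level is not known. No other annotated gene overlapped Socs2 or Socs3. A stretch at the start of Cish and of Socs3 is shown because each holds the motif TTCNNNGAA, a palindrome (the same on both strands) that STAT factors recognise, in capitals. The letters come from the RefSeq windows of 300 bases (250 before to 50 after a start, GRCm38.p6), which hold Cish and Socs3.
Cish, chr9:107296655-107296682, plus strand: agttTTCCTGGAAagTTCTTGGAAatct
Socs3, chr11:117969452-117969580, minus strand: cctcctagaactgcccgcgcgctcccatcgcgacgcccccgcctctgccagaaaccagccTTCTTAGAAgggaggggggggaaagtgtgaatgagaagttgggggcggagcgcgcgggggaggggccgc
The Cish window held 2 matches, which lie in the first exon of 1 longer GENCODE transcript and upstream of the other transcripts. The Socs3 window held 1 match, outside the annotated exons. Of all 32851 windows of this length, 2726 (8.30%) held at least 1 match and 150 (0.457%) held 2 or more. Such a match describes these letters and is not a measured binding site.

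Libraries differed widely in depth. Values are listed below with the non-pregnant library first, then both pregnant and both postpartum libraries by number. The beta class held 674, 1770, 110, 396 and 895 cells and 1074536, 522491, 6323, 38748 and 193238 non-hormone UMIs. Of 8 beta cell markers (Ins1, Ins2, Iapp, Mafa, Slc2a2, Nkx6-1, Pdx1 and G6pc2), all were detected in the beta class outside pregnant 2. There Slc2a2, Nkx6-1 and Pdx1 were at 0. Ins1 and Ins2 define the class, so their detection was set by the rule. The alpha class also held UMIs of all 8 in postpartum 2, and had 1 at 0 in the non-pregnant, pregnant 1 and postpartum 1 libraries. Detection alone thus does not show that a barcode is a beta cell. Pregnant 2 stood apart, with a median of 89 UMIs per cell against 236 to 2553 in the others, and 25 of its 164 cells were marked as doublets against 1 to 9 cells elsewhere, so each state comparison is given with and without it. Gcg was seen in 92.9% and 83.0% of beta-class barcodes of the non-pregnant and pregnant 1 libraries, at 1.26% and 1.81% of UMIs, so barcodes were not free of RNA of other islet cells. The non-pregnant file lists 40930 features on a linear scale and the other 4 list 6695 on a log2 scale, so the non-pregnant state and the making of its file cannot be told apart.

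Cish was higher in the beta class of both postpartum libraries than in pregnant 1 and the non-pregnant library. The UMIs of the class numbered 87, 22, 2, 14 and 72. Pooled over cells, these gave 81.0 (95% exact Poisson interval 64.8 to 99.9), 42.1 (26.4 to 63.7), 316 (38.3 to 1143), 361 (198 to 606) and 373 (292 to 469) UMIs per 1000000 non-hormone UMIs (CPM). The intervals here and below cover counting error only. Both postpartum libraries were high and close to each other, and their intervals did not overlap those of the non-pregnant library or of pregnant 1. The pregnant 2 value came from 2 UMIs in 1 cell, and its interval spans the levels of the other 4 libraries. The postpartum 1 and postpartum 2 levels were 8.58 (4.06 to 17.5) and 8.85 (5.42 to 15.0) times the pregnant 1 level. Pregnant 1 itself stood at 0.520 (0.310 to 0.838) times the non-pregnant level.

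Socs2, an inhibitor best known for restraining growth hormone signalling, had 211, 100, 0, 27 and 97 UMIs in the beta class. Its pooled levels were 196 (171 to 225), 191 (156 to 233), 0, 697 (459 to 1014) and 502 (407 to 612) CPM. The 0 of pregnant 2 allows up to 474 CPM (3 counts), above the non-pregnant level, so no difference between it and the non-pregnant library or pregnant 1 was detectable at this depth. The 2 postpartum libraries were again the highest. Their levels were 3.64 (2.29 to 5.62) and 2.62 (1.96 to 3.50) times that of pregnant 1, which was 0.975 (0.760 to 1.24) times the non-pregnant level.

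Socs3, the inhibitor of gp130 and STAT3 signalling, had 119, 12, 0, 11 and 86 UMIs in the beta class. Its pooled levels were 111 (91.7 to 133), 23.0 (11.9 to 40.1), 0 (up to 474), 284 (142 to 508) and 445 (356 to 550) CPM. Pregnant 1 was the lowest of the 4 deeper libraries, at 0.207 (0.104 to 0.376) times the non-pregnant level, and the intervals of both postpartum libraries lay above those of the non-pregnant library and pregnant 1. The limit in pregnant 2 lies above the levels of all other libraries, so this library says nothing on Socs3. The postpartum levels were 12.4 (4.94 to 30.6) and 19.4 (10.5 to 39.0) times that of pregnant 1.

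**Figure D1:**
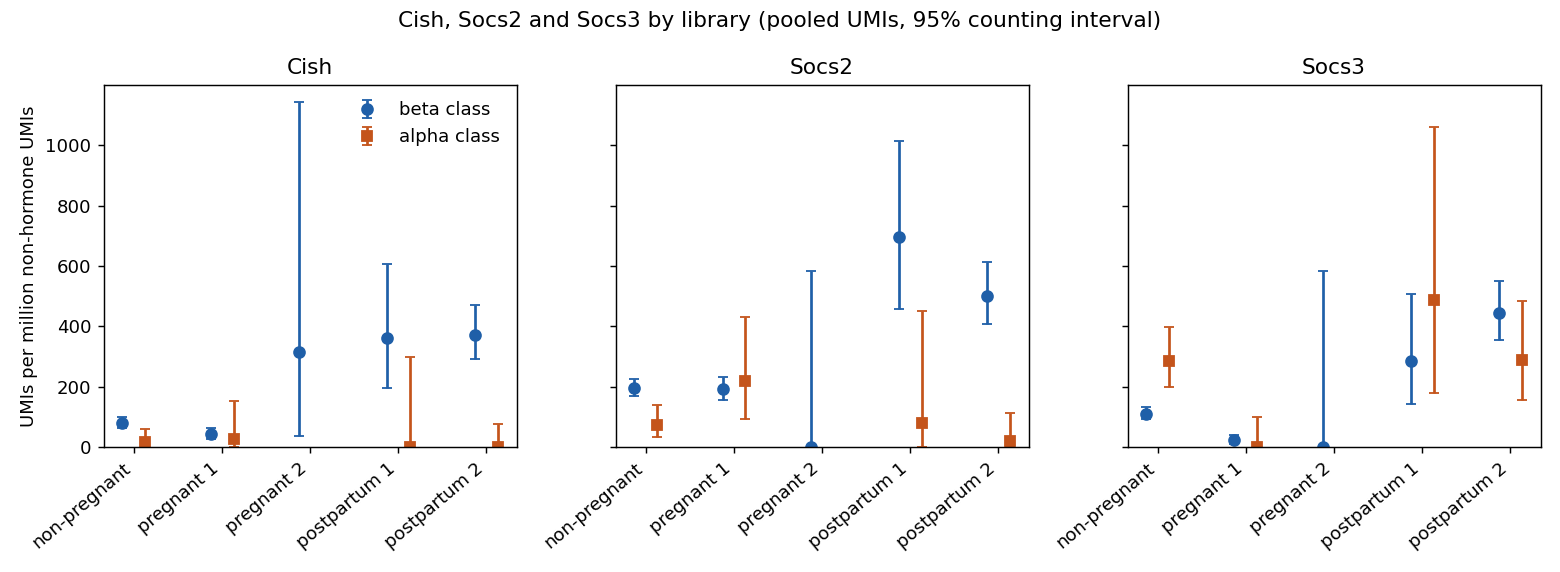
Pooled level (CPM) of Cish, Socs2 and Socs3 (y axis, linear) in each library (x axis) for the beta class (circles) and the alpha class (squares), with 95% exact Poisson intervals; the alpha class of pregnant 2, with 1144 non-hormone UMIs, is not drawn, and a bar from 0 ends at the two-sided bound (583 CPM in pregnant 2). In the beta class both postpartum libraries lie above the non-pregnant library and pregnant 1 for each gene, the interval of pregnant 2 is the widest for Cish, and in the alpha class Cish is at 0 in both postpartum libraries while Socs3 is not.

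The share of beta-class cells with a UMI was compared at equal depth, since cells of the non-pregnant library were sequenced the deepest. Thinned to 200 UMIs per cell, Cish was seen in 0.445% (95% exact interval 0.0919 to 1.30) of non-pregnant and 0.461% (0.199 to 0.907) of pregnant 1 cells. It was seen in 3.51% (1.53 to 6.80) of postpartum 1 and 2.47% (1.56 to 3.72) of postpartum 2 cells. Socs3 was seen in 0.742%, 0.231%, 1.75% and 2.58% of cells of the same 4 libraries, and Socs2 in 1.63%, 1.90%, 3.51% and 2.47%. The intervals of the postpartum libraries lay above those of the non-pregnant library and pregnant 1 for Cish. For Socs2 they overlapped those of both libraries, and for Socs3 postpartum 2 lay above pregnant 1 while the interval of postpartum 1 overlapped both. Without thinning, the Cish share was 9.05%, 1.02%, 3.54% and 6.82%, and in the alpha class it was 2.13%, 0.709%, 0 and 0, with a median of 2261.5, 489, 240.5 and 656 UMIs per alpha-class cell against 2618, 546.5, 242.5 and 557 in the beta class. Thinning left out 0, 36, 168 and 5 cells of these libraries and 109 of the 110 cells of pregnant 2. Of the 200 UMIs a median of 121, 108, 77 and 67 were not hormone UMIs, so a postpartum cell offered fewer chances to see a gene.

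**Figure D2:**
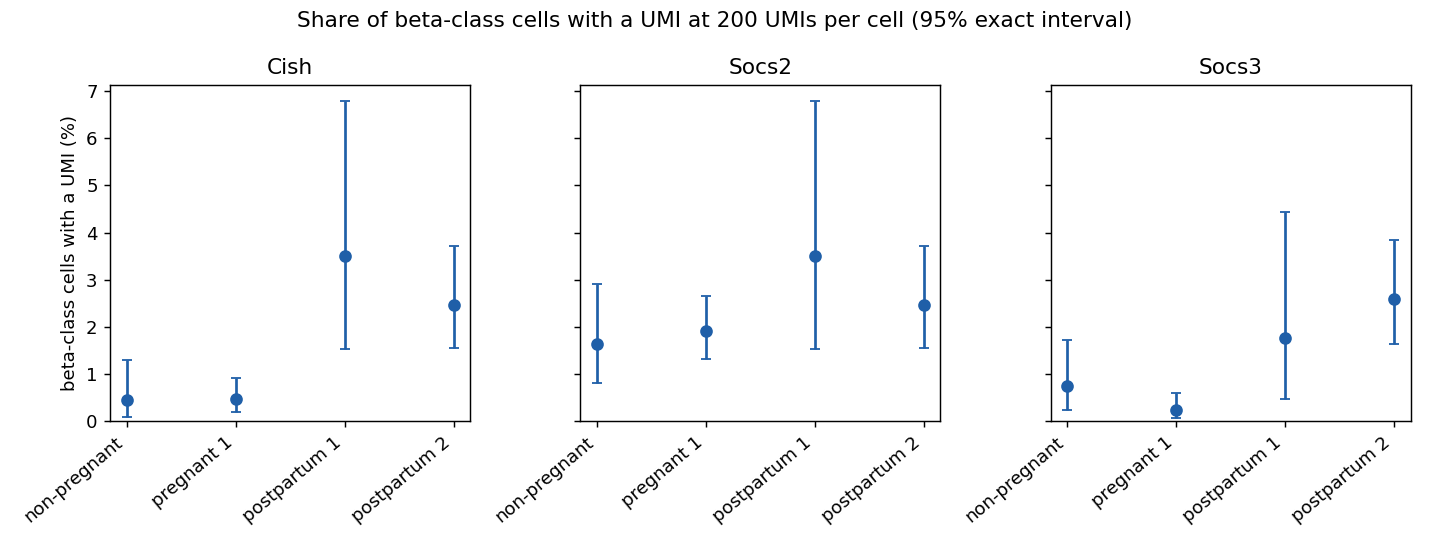
Share of beta-class cells with at least 1 UMI of Cish, Socs2 or Socs3 (y axis, percent) after thinning each cell to 200 UMIs, in 4 libraries (x axis), with 95% exact binomial intervals over cells; pregnant 2, where 1 cell reached that depth, is not drawn. Cish is at 0.445% and 0.461% in the non-pregnant library and pregnant 1 and at 3.51% and 2.47% in the postpartum libraries.

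The states were then tested in 1 limma fit across the transcriptome, on log2 of the mean CPM over beta-class cells plus 100. Genes under a mean level of 20 CPM were left out, all 3 members were tested, and the added 100 makes differences of low genes smaller. With all 5 libraries, 0 of the 3 genes passed the adjusted p threshold of 0.05 in any of the 3 comparisons. In this fit 3 of 6216 genes (0.0483%) passed for pregnant minus non-pregnant, 3 (0.0483%) for postpartum minus non-pregnant and 1 (0.0161%) for postpartum minus pregnant, and 3 (0.0483%), 0 (0%) and 1 (0.0161%) passed in edgeR's quasi-likelihood test on the recovered UMIs. For postpartum minus pregnant, the limma difference was 0.66 ± 1.07 (SE) for Cish, 2.04 ± 1.07 for Socs2 and 2.10 ± 0.87 for Socs3, with adjusted p = 0.997 for each. At an unadjusted limma p under 0.05, Socs3 for postpartum minus pregnant was the only member and comparison to pass. For Cish the groups overlapped, with the pregnant libraries at 50.9 and 551 mean CPM and the postpartum libraries at 321 and 480. For Socs2 (183 and 0 against 787 and 438) and Socs3 (15.2 and 0 against 326 and 398) the listed values did not overlap. The 0 of pregnant 2 allows up to 474 pooled CPM for each gene. On that pooled scale the postpartum levels of Socs2 were 697 (459 to 1014) and 502 (407 to 612) CPM, above the limit but with intervals that reach below it. Those of Socs3 were 284 and 445 CPM, below the limit. Whether the groups overlap was thus not detectable for Socs3, and for Socs2 not beyond counting error.

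Without pregnant 2, Cish and Socs3 were higher postpartum than in pregnant 1 by limma. Cish differed by 1.71 ± 0.46 (limma adjusted p = 0.0401) and Socs3 by 2.00 ± 0.46 (limma adjusted p = 0.00528), while Socs2 differed by 1.29 ± 0.45 and did not pass (limma adjusted p = 0.347). In this comparison 35 of 6455 genes (0.542%) passed, 22 of them (0.341%) higher postpartum. The only replicated spread then is that between the 2 postpartum libraries, a lone pregnant and a lone non-pregnant library are assumed to vary alike, and the error of each gene was set by the trend over all genes. In simulated data this limma fit without pregnant 2 missed most of the genes that had been changed, recovering some only where its estimated prior weight was infinite, as it was in the real fit. In these draws edgeR missed fewer. All genes were drawn with the same dispersion, and edgeR had no level filter there, so the draws do not rank limma and edgeR on the real data. A gene that did not pass the limma test here is not shown to be unchanged. The edgeR test without pregnant 2, which called 120 genes (1.86%), 89 of them (1.38%) higher postpartum, gave 3.21 for Cish (edgeR adjusted p = 3.69e-05), 4.15 for Socs3 (edgeR adjusted p = 1.64e-07) and 1.67 for Socs2 (edgeR adjusted p = 0.0827) on its log2 scale. Leaving out pregnant 1 instead turned the sign of Cish to -0.40.

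**Figure D3:**
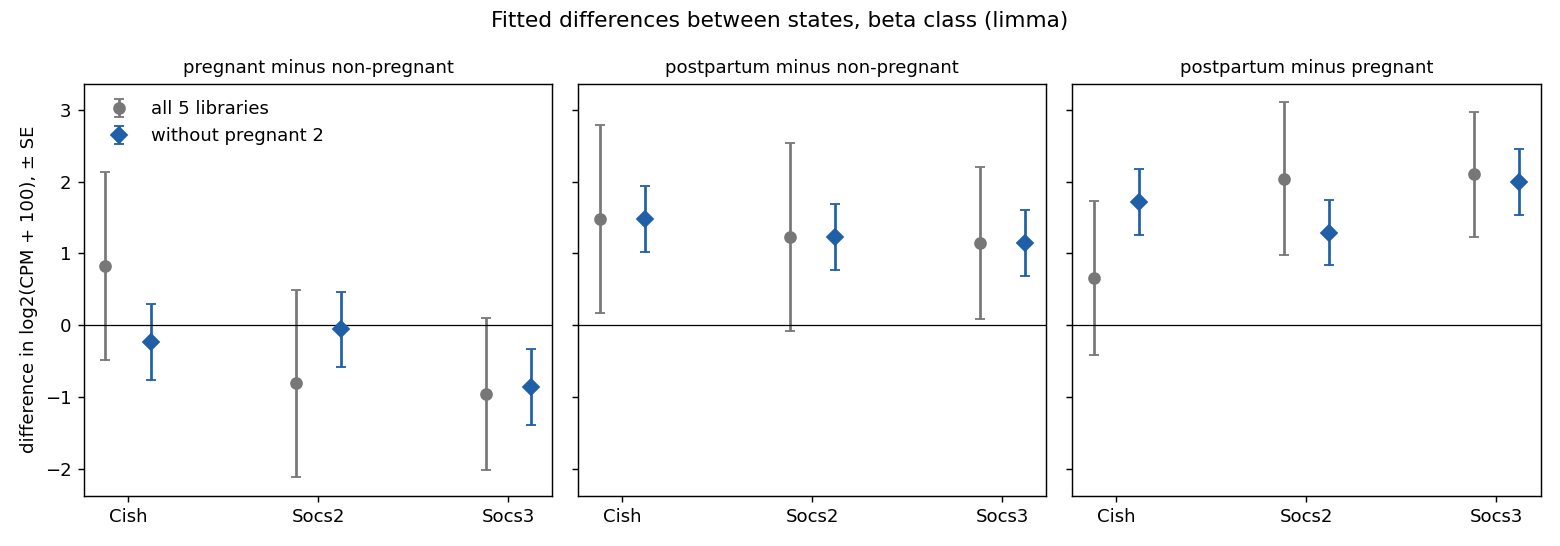
Fitted differences between states in the beta class (y axis, difference in log2 of CPM + 100, bars ± SE) for Cish, Socs2 and Socs3, with all 5 libraries (circles) and without pregnant 2 (diamonds). For postpartum minus pregnant Cish moves from 0.66 to 1.71 and Socs3 from 2.10 to 2.00 when pregnant 2 is left out, and the error bars shorten.

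Against the non-pregnant library the 3 genes were higher postpartum in the fitted values but none passed the limma test. With all libraries, postpartum minus non-pregnant was 1.48 ± 1.31 for Cish, 1.23 ± 1.31 for Socs2 and 1.14 ± 1.06 for Socs3 (limma adjusted p = 1.00 for each). Without pregnant 2, where 134 of 6455 genes (2.08%) passed, the limma adjusted p was 0.0585 for Cish, 0.195 for Socs2 and 0.298 for Socs3. With edgeR and without pregnant 2, where 363 genes (5.62%) passed, 205 of them (3.18%) higher postpartum, the edgeR adjusted p was 0.00127, 0.0336 and 0.00878. For pregnant minus non-pregnant the limma differences were 0.82 ± 1.31, -0.81 ± 1.31 and -0.96 ± 1.06 (adjusted p = 0.919 for each), and -0.23, -0.06 and -0.86 without pregnant 2, where 43 genes (0.666%) passed. Only Socs3 passed there in edgeR without pregnant 2, at -2.22 (edgeR adjusted p = 0.0425; 153 genes, 2.37%, passed). The median of all genes tested was -0.40 for pregnant minus non-pregnant and 0.28 for postpartum minus pregnant with all libraries, and -0.02 and -0.09 without pregnant 2.

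Across cell classes, Cish was seen in the beta class far more than in the alpha class in postpartum 2. Alpha-class cells, numbering 94, 141, 17, 120 and 179, held 2, 1, 0, 0 and 0 Cish UMIs. In postpartum 2 the beta-class level was 6.03 times the 61.8 CPM that a count of 0 in the alpha class allows (3 counts in that library), and in postpartum 1 it was 1.48 times that limit. These 2 values leave out the counting error of the beta class. In postpartum 2 the intervals of beta (292 to 469 CPM) and alpha (0 to 75.9) did not overlap. In postpartum 1 they did (198 to 606 and 0 to 300). In the non-pregnant library the ratio of beta to alpha was 4.96 (1.33 to 41.6), from 87 and 2 UMIs. Delta-class cells held 5, 0, 0, 2 and 1 Cish UMIs, and in the non-pregnant library the beta class stood at 0.881 (0.363 to 2.78) times the delta level and 0.660 (0.291 to 1.85) times the gamma level. Whether Cish differs between beta, delta and gamma cells was thus not detectable at this depth.

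Socs2 had 9, 8, 0, 1 and 1 UMIs in the alpha class, and the beta to alpha ratio was 2.67 (1.38 to 5.93) in the non-pregnant library, 0.876 (0.428 to 2.08) in pregnant 1 and, from 1 alpha UMI each, 8.58 (1.41 to 351) and 24.4 (4.27 to 973) in the postpartum libraries. The postpartum libraries and the non-pregnant one were higher in the beta class than in the alpha class, and pregnant 1 showed no difference beyond counting error. In the non-pregnant library beta stood at 1.34 (0.666 to 3.13) times the delta level, and gamma held 0 Socs2 UMIs, which allow up to 61.3 CPM. In postpartum 2 beta stood at 1.40 (0.378 to 11.7) times the gamma level. Socs3 had 35, 0, 0, 6 and 14 alpha-class UMIs. It was the 1 of the 3 genes that in no library was higher in beta than in alpha beyond counting error. Its beta to alpha ratio was 0.388 (0.264 to 0.582) in the non-pregnant library, 0.583 (0.198 to 1.92) in postpartum 1 and, for postpartum 2, 1.54 (0.872 to 2.94). In the gamma class of the non-pregnant library, 9 of 34 cells held 26 Socs3 UMIs, with 7 in 1 cell, at 531 CPM (347 to 778), and the beta class stood at 0.208 (0.135 to 0.332) times that level.

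Beta class and alpha class were tested within libraries with the library as a block. With all 5 libraries Cish was 1.60 ± 0.40 higher (limma adjusted p = 0.289), Socs2 differed by 1.00 ± 0.42 (adjusted p = 0.390) and Socs3 by -0.10 ± 0.25 (adjusted p = 0.882). None passed, among 11 of 6149 genes (0.179%) that did. The fitted level of Cish was higher in the beta class in 5 of 5 libraries (exact sign-flip permutation test, two-sided, p = 0.0625, the smallest that 5 libraries allow), Socs2 in 3 of 5 (exact p = 0.25) and Socs3 in 2 of 5 (exact p = 0.75). The direction of Cish is not set by counts in 2 of these libraries. In pregnant 2 it rests on 2 UMIs against 0, where 0 allows 2622 CPM in the alpha class, and in pregnant 1 on 22 against 1 UMI, a ratio of 1.54 (0.249 to 63.6). In pregnant 2 both classes held 0 UMIs of Socs2 and Socs3. Without pregnant 2, whose 17 alpha cells held 1144 non-hormone UMIs, Cish (1.33 ± 0.32, limma adjusted p = 0.00546) and Socs2 (1.25 ± 0.31, limma adjusted p = 0.00801) passed with 403 of 6391 genes (6.31%), 292 of them (4.57%) higher in the beta class, and Socs3 did not (-0.12 ± 0.28, adjusted p = 0.865). In edgeR on all 5 libraries, which called 333 genes (5.42%, and 3.95% higher in the beta class), Cish and Socs2 passed at edgeR adjusted p = 0.000319 and 0.00745. Without pregnant 2 edgeR called 404 genes (6.32%, and 4.46% higher), Cish and Socs2 among them.

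**Figure D4:**
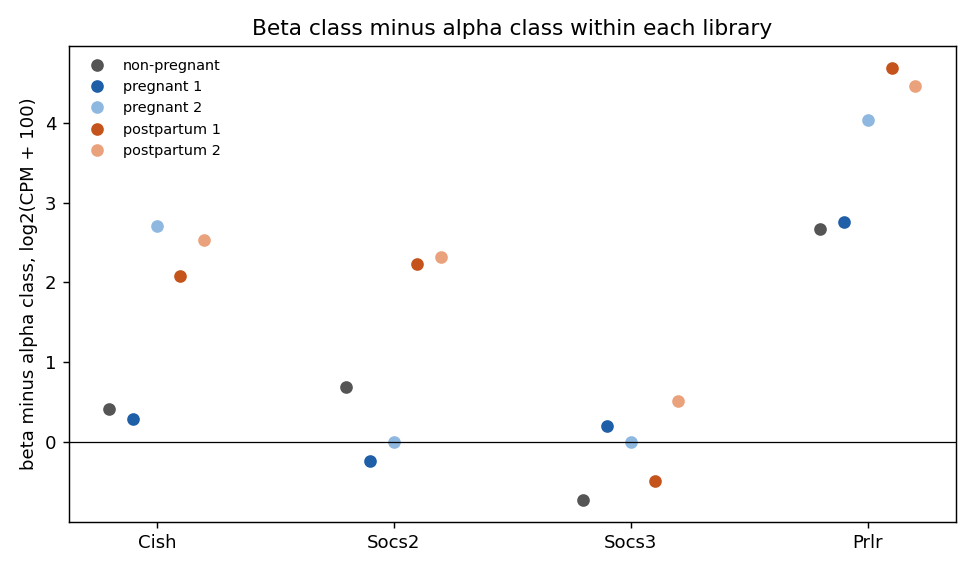
Beta class minus alpha class within each library (y axis, difference in log2 of CPM + 100), 1 point per library, for Cish, Socs2, Socs3 and the prolactin receptor Prlr. All 5 points of Cish and of Prlr lie above 0, whereas those of Socs3 lie between -0.72 and 0.51.

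In postpartum 2, Socs3 was higher in beta-class cells with little insulin. In that library, 53 beta-class cells with under 30% of their UMIs on insulin held 22 of the 86 Socs3 UMIs, at 1487 CPM (932 to 2252), against 355 CPM (271 to 458) in the 789 cells with 45% or more. The same bands gave 112 (87.7 to 141) and 91.0 (18.8 to 266) CPM in the non-pregnant library, and 0 UMIs in 21 cells and 357 CPM (171 to 657) in postpartum 1. The 355 CPM of postpartum 2 is above the 14.2 CPM (0.358 to 78.9, 1 UMI) of the same band in pregnant 1. Barcodes with 3 or more UMIs of 7 measured endothelial markers numbered 76, 25, 0, 6 and 17. In postpartum 2 they held 11 Socs3 UMIs, at 2062 CPM, and 15 of the 17 fell in the beta class by the hormone rule. In the non-pregnant library they held 18 Socs3 UMIs, at 130 CPM, and in pregnant 1 and postpartum 1 they held 0. The 21 barcodes of postpartum 2 with 3 or more UMIs of 6 measured macrophage markers held 6 Socs3 UMIs, at 1256 CPM. The 7 endothelial markers summed to 0.0527%, 0.0291%, 0, 0.0257% and 0.0264% of beta-class UMIs, and all 7 were at 0 in pregnant 2. Acinar markers, for enzymes of the exocrine pancreas, summed over 11 genes to 0.0530%, 0.00187%, 0.708%, 0.114% and 0.0810% of beta-class UMIs, lowest in pregnant 1 as Cish was, with 7 of the 11 at 0 there and 6 at 0 in pregnant 2. Barcodes with 3 or more UMIs of these markers numbered 44, 0, 2, 3 and 4, and those of pregnant 2 and both postpartum libraries held 0 UMIs of the 3 inhibitors. With pregnant 2 and all barcodes with 3 or more UMIs of the endothelial list, the macrophage list or Sparc (the 1 mesenchymal marker measured) left out, postpartum minus pregnant was 1.91 ± 0.46 for Socs3 (limma adjusted p = 0.00886) and 1.74 ± 0.45 for Cish (limma adjusted p = 0.0294). Restricting the beta class to barcodes with under 1% of UMIs on Gcg, again without pregnant 2, gave 2.15 ± 0.44 for Socs3. Cish was at 1.76 ± 0.45 in this restricted fit, and neither gene passed. These differences were no smaller than the 2.00 and 1.71 without the restriction. The estimated prior weight was 14 degrees of freedom here and infinite there, so the 2 tests are not alike in strictness. Acinar-marker barcodes were not left out in these fits, and no lymphocyte marker was measured.

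The receptor upstream was also highest in both postpartum libraries. Prlr, which binds prolactin and placental lactogens, stood at 924, 1282, 949 (from 6 UMIs), 6245 and 6681 pooled CPM in the beta class, and passed without pregnant 2 for postpartum minus pregnant (2.33 ± 0.45, limma adjusted p = 0.000176). Of 12 measured receptors of the pathway among 19 listed, 11 were tested without pregnant 2, and Prlr was the 1 that passed postpartum minus pregnant, by limma and by edgeR. With all 5 libraries the only listed gene of any group that passed any limma comparison was Prlr, in the beta class over the alpha class (3.72 ± 0.42, limma adjusted p = 0.0279). Ghr, the growth hormone receptor, stood at 265, 227, 0, 113 and 160 mean CPM and did not pass for any state. It was higher in the beta class than in the alpha class (1.02 ± 0.28, limma adjusted p = 0.0176 without pregnant 2). Il6st, which encodes the gp130 chain, had 83, 4, 0, 0 and 7 UMIs, or 77.2, 7.66, 0, 0 and 36.2 pooled CPM. It fell in pregnant 1 against the non-pregnant library in edgeR without pregnant 2 (-3.25, edgeR adjusted p = 0.0233), not in limma, and neither postpartum library lay above the non-pregnant one. Il6ra, the interleukin-6 receptor, ranged from 90.6 to 169 mean CPM outside pregnant 2, where it was at 0. Ifngr1, a chain of the interferon gamma receptor, was at 7273 mean CPM in pregnant 2 against 18.8 to 32.9 elsewhere. Beta-class cells of pregnant 2 had a median of 91 UMIs, and there 2 Cish UMIs in 1 cell gave 551 mean CPM. The UMIs behind the Ifngr1 value were not counted, so it does not show a higher level in that library.

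None of the measured kinases and STAT factors passed a state comparison. Most genes tested did not pass either, so the 0 calls here and in the next paragraph do not set these lists apart. Jak1, a kinase shared by many cytokine receptors, stood at 359, 271, 0, 567 and 562 mean CPM. Jak2, the kinase of the prolactin receptor, stood at 33.4, 24.5, 0, 0 and 8.61 mean CPM and did not reach the level needed for the test. Of the 5 measured STAT genes, 0 passed between states in limma or edgeR without pregnant 2, and 0 had an unadjusted p under 0.05. Stat3 stood at 609, 545, 0, 735 and 398 mean CPM, Stat5b at 67.0, 130, 0, 21.8 and 68.5, and Stat2 at 48.8, 43.6, 0, 41.2 and 69.4. Their median for postpartum minus pregnant was 0.01, beside -0.09 over all 6455 genes.

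The other brakes of the pathway gave 0 calls between states in limma and in edgeR without pregnant 2, with at most 1 gene of a list under an unadjusted p of 0.05. These were 9 phosphatases and other negative regulators, with Ptpn1, Ptpn6, Ptpn11 and Pias2 the highest in level, and 6 partners of the SOCS box, with Elob, Eloc, Rnf7 and Rbx1 the highest. The medians for postpartum minus pregnant were -0.12 and -0.08. Elob, a subunit of the ligase that the SOCS box binds, was higher in the beta class than in the alpha class (0.86 ± 0.27, limma adjusted p = 0.0388 without pregnant 2), a call that edgeR did not make. Of the family itself, Socs6 and Socs7 were also measured in all files. Socs7 stood at 109, 71.9, 313 (1 UMI), 121 and 161 mean CPM. Socs6 stood at 46.0, 38.6, 0, 0 and 34.6 and was lower in the beta class than in the alpha class (-0.98 ± 0.29, limma adjusted p = 0.0352 without pregnant 2), which edgeR did not call.

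Among 18 measured genes linked to STAT5 in beta cells, 3 rose and 0 fell postpartum against pregnant 1, with a median of 0.61 (5 rose in edgeR, adding Irs2 and Tph1). These were Ivd, an enzyme of leucine breakdown (90.5, 90.0, 0, 728 and 958 mean CPM; 2.30 ± 0.45), Fmo1, a flavin monooxygenase (47.7, 148, 175, 773 and 1569 mean CPM; 2.28 ± 0.45), and Enpp2, which makes lysophosphatidic acid (364, 588, 1466, 2395 and 2622 mean CPM; 1.92 ± 0.45), with limma adjusted p = 0.000247, 0.000263 and 0.00611. The cyclin gene Ccnd2 stood at 2295, 1676, 932, 3948 and 3289 mean CPM and did not pass. Against the non-pregnant library 3 rose and 1 fell, the latter being Wipi1, an autophagy gene (509, 20.5, 0, 0 and 37.7 mean CPM; -2.38 ± 0.46, limma adjusted p = 4.90e-05), which also fell in pregnant 1 against the non-pregnant library (-2.34 ± 0.53, limma adjusted p = 0.00286). Against the alpha class 6 of 17 tested were higher in limma without pregnant 2 and 0 lower (Ivd, Fmo1, Enpp2, Myc, Matn2 and Neb), beside 4.57% higher over all genes. In edgeR without pregnant 2, 5 were higher (Ivd, Fmo1, Enpp2, Matn2 and Wipi1) and 1 was lower (Irs2, an adaptor of the insulin receptor). This list was drawn up with results of these libraries known, so its direction is not independent evidence. For this list and those below, the share of all genes that passed each state comparison is given with the state tests above.

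Among 7 measured genes of the STAT3-linked acute response, 2 rose postpartum against pregnant 1 and 0 fell, with a median of 1.16 (4 rose in edgeR, adding Cebpd and Irf1). Junb, an AP-1 subunit, stood at 472, 174, 0, 1404 and 981 mean CPM (2.22 ± 0.45, limma adjusted p = 0.000431). Nfkbia, the inhibitor of NF-kappaB, stood at 207, 176, 758, 1607 and 2368 mean CPM (2.89 ± 0.45, limma adjusted p = 2.15e-07). Against the non-pregnant library Nfkbia rose, while Cebpb (415, 154, 0, 23.4 and 108 mean CPM) and Lcn2 (175, 63.9, 0, 0 and 3.99 mean CPM) fell, with limma adjusted p = 0.0181 and 0.0240. Cebpd stood at 282, 16.8, 826, 165 and 157 mean CPM. Junb also belongs to the list of the next paragraph. In the alpha class Junb stood at 652, 308, 0, 2177 and 1212 mean CPM and Nfkbia at 333, 204, 0, 3703 and 3379. High postpartum values of these genes were thus not confined to the beta class.

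Genes that respond within minutes to stimulation or to tissue dissociation were higher in the same libraries as Cish, Socs2 and Socs3. The 23 measured genes of this list summed to 5346, 7963, 9967, 27705 and 29934 mean CPM in the beta class and to 6986, 9009, 24391, 33374 and 33886 in the alpha class. Without Ubb, a ubiquitin gene, the beta-class sums were 5150, 3649, 3749, 16580 and 18144, so that pregnant 1 lay below the non-pregnant library and not above it, and both postpartum libraries remained the highest. In pregnant 2, 16 of the 23 were at 0 in the beta class. Over all genes tested without pregnant 2, the limma median for postpartum minus pregnant was -0.09. Without pregnant 2, 9 of 23 rose postpartum against pregnant 1 and 0 fell, with a median of 1.60 (15 rose in edgeR). They included Fos, Fosb, Jun, Junb, Egr1, Nr4a1, Hspa1a and Hspa1b. Fos, for example, stood at 181, 157, 0, 2011 and 1854 mean CPM (2.98 ± 0.45, limma adjusted p = 8.09e-08), and Egr1 passed narrowly at 1.65 ± 0.45 (limma adjusted p = 0.04997). Against the alpha class Zfp36 and Klf4 were lower in limma. Against the non-pregnant library 10 rose, including Fos, Fosb, Jun, Nr4a1, Hspa1a, Hspa1b, Atf3, Klf6 and Ubb, at 195, 4314, 6218, 11125 and 11790 mean CPM. Ubb was also higher in pregnant 1 than in the non-pregnant library, by 3.90 without pregnant 2. In the alpha class it stood at 165, 4360, 3676, 12128 and 12332 mean CPM, so the non-pregnant file was the lowest in both classes. Within postpartum 2, beta-class cells with a Socs3 UMI had a median of 3.40% of non-hormone UMIs on the listed genes against 2.52% in cells without one, and in postpartum 1 the values were 4.69% (9 cells) and 2.08%. Cells with Socs3 were the deeper ones in postpartum 2, at a median of 754 against 551 UMIs. For Cish the shares with and without a UMI were 2.72% and 2.56% in postpartum 2, and 2.60% (14 cells) and 2.08% in postpartum 1. For Socs2 they were 2.63% and 2.59% in postpartum 2, and 1.49% (23 cells) and 2.14%, the other way, in postpartum 1. The part of this response in the levels of the 3 inhibitors was not tested.

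Within a library, most cells with a UMI of Cish had none of Socs2. Of beta-class cells with a Cish UMI, 15 of 61 also held Socs2 in the non-pregnant library (24.6%, against 19.6% of cells without Cish), and 8 of 61 in postpartum 2 (13.1% against 6.95%). Cells with Cish were also deeper, at a median of 3987 against 2551 UMIs and 717 against 551.5 UMIs, and the shares were not corrected for this.

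Over the 15 class-by-library groups of at least 20 cells, the genes most like Cish in log2 of mean CPM plus 100 were Lman1 (Pearson r = 0.898), Cela2a, Amy2a5, Cox6a2 and Ero1lb (0.842), among 2411 genes, and Prlr ranked 9 (0.794). Cela2a and Amy2a5 are acinar enzyme genes of the list whose sums are given above, and the part of acinar RNA in this likeness was not tested. Those most like Socs2 were Txnl1 (0.835), C1qa (a macrophage marker), Ntrk2, Abi2 and Clns1a (0.788), and those most like Socs3 were among others Bhlhe41 (0.786), Zfp36, Vkorc1 and Zswim8 (0.744). The 3 inhibitors were little like one another, at 0.24 for Cish and Socs2, 0.07 for Cish and Socs3 and -0.09 for Socs2 and Socs3. The groups share libraries and depth, and these values describe the 15 groups alone. Without pregnant 2, which leaves 14 groups, the correlation of Cish and Socs2 was 0.55, and Hopx led the genes most like Cish (0.879).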

How the data were processed

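The non-pregnant file holds a linear signal that the authors deposited (each cell sums to 3023.99), and the other 4 hold log2 of CPM plus 1 made by the authors, as read from the values. Per the submitters' processing notes, GRCm38, mm10, Partek 8.0 and Bowtie 1.1.1 were used; no source used here gives their roles, the annotation or the strand. Counts recovered as multiples of 1 UMI were whole within 0.1 for 100% of values. Genes were matched by symbol (6543) or unique synonym (83). Scrublet (scanpy 1.11.5) marked 6, 3, 25, 9 and 1 cells as doublets, which were removed. Between libraries, 0 cell profiles were identical; cells are numbered, so shared barcodes could not be counted. CPM used non-hormone UMIs of shared genes.

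Tests used limma 3.58.1 in R 4.3.3 (trended, Benjamini-Hochberg, two-sided; 2 residual degrees of freedom with infinite prior weight between states), with edgeR 4.0.16 and DESeq2 1.42.0 as alternatives and checks on simulated data. Count tests were not the main tests because the deposited values are normalized. Members, lists and tests were chosen with earlier results of these data known. Named genes were the 3 members, listed genes past a test, and up to 4 genes per list with the highest beta-class level. A few genes that this rule names are not reported here.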

Additional observations from a re-analysis of the deposited data

Results flagged for a closer look

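The non-pregnant file lists 3 further family members that the other 4 files do not share, so no comparison uses them. In its beta class Socs1 stood at 6.47, Socs4 at 30.9 and Socs5 at 25.9 UMIs per 1000000 non-hormone UMIs of all features, from 9, 43 and 36 UMIs in 674 cells. Each lies above the 2.16 that a count of 0 allows (3 counts). On the same scale Cish stood at 62.6, Socs2 at 152 and Socs3 at 85.6.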

How the results depend on the processing

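Pregnant 2 and the choice of test decided most calls; of 243 values of the 3 genes under alternatives, 203 kept direction and side of the threshold, 27 newly passed and 13 changed sign. The Gcg and marker restrictions and edgeR without pregnant 2 were chosen after seeing the data. Genes called for pregnant minus non-pregnant (3), postpartum minus non-pregnant (3), postpartum minus pregnant (1) and beta minus alpha (11) changed as follows. A level of at least 100 gave 0 for the first, 0 for the third and 6 for the last. Cells of at least 200 UMIs gave 41, 114, 28 and 370. Under 1% Gcg without pregnant 2 gave 12, 55 and 8. Without non-endocrine markers and pregnant 2, 43, 131 and 35 were called. edgeR without pregnant 2 gave 153, 363, 120 and 404. edgeR on all libraries gave 0 for the second and 333 for the last. DESeq2 gave 7 for the second, 0 for the third and 159 for the last. Pooled UMIs gave 3, and all cells 2, for the third. A pseudocount of 10 and all UMIs as denominator each gave 0 for the last. With all UMIs as denominator, postpartum minus non-pregnant shrank to 0.74 for Cish, 0.52 for Socs2 and 0.56 for Socs3. Postpartum minus pregnant shrank to 0.24, 1.14 and 1.25. The added 100 weighs more on these lower levels. The median insulin share of beta-class cells was 28.9%, 35.2%, 29.1%, 51.4% and 61.8% in library order. How much of the postpartum levels depends on the denominator was not tested.

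Cish for pregnant minus non-pregnant turned to -0.32 in edgeR, -0.20 in DESeq2, -0.23 in cells of at least 200 UMIs, -0.27 under 1% Gcg without pregnant 2, -0.22 without non-endocrine markers and pregnant 2, and -0.90 in edgeR without pregnant 2. Socs2 turned to 0.12 under 1% Gcg without pregnant 2 and 0.0013 in edgeR without pregnant 2, where Socs3 passed at -2.22. For postpartum minus non-pregnant Cish passed without non-endocrine markers and pregnant 2 (1.52), and in edgeR without pregnant 2 Cish (2.31), Socs2 (1.67) and Socs3 (1.93) passed. For postpartum minus pregnant Cish and Socs3 passed in cells of at least 200 UMIs (1.77 and 2.18), a limit that 3 beta-class cells of pregnant 2 reached so that this library dropped out,, without non-endocrine markers and pregnant 2 (1.74 and 1.91) and in edgeR without pregnant 2 (3.21 and 4.15). For beta minus alpha Cish passed in edgeR (3.42), DESeq2 (3.29), cells of at least 200 UMIs (1.36) and edgeR without pregnant 2 (3.41), and Socs2 in edgeR (1.70), such cells (1.20) and edgeR without pregnant 2 (1.72). Socs3 turned to 0.060 with a pseudocount of 10 and 0.14 in such cells. The causes were not tested.

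Leaving out 1 library at a time, genes called ranged from 2 to 1681, 2 to 147, 1 to 1910 and 0 to 403 in the order above. Cish ranged from -0.23 to 1.88, 1.25 to 1.71, -0.40 to 1.71 and 1.33 to 1.93. Socs2 ranged from -1.56 to -0.061, 0.87 to 1.59, 1.29 to 2.79 and 0.67 to 1.31. Socs3 ranged from -1.06 to -0.86, 1.03 to 1.25, 1.99 to 2.21 and -0.25 to 0.058. Without pregnant 1 the pregnant group is the shallow pregnant 2 alone, and Socs2 (2.79) and Socs3 (2.20) then passed postpartum minus pregnant. In the same fit Cish passed pregnant minus non-pregnant as higher (1.88) and Socs2 as lower (-1.56), and Cish passed postpartum minus non-pregnant (1.48). In pregnant 2, Socs2 and Socs3 had 0 UMIs, which allow up to 474 CPM, and Cish had 2 UMIs in 1 cell. The calls against pregnant 2 thus do not show a lower or higher level there.

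With the replicate number as a block (postpartum minus pregnant), Cish was 0.66 ± 1.39, Socs2 2.04 ± 1.27 and Socs3 2.10 ± 0.93 (limma adjusted p = 0.996 each), with 1 gene called. Differences between library 1 and library 2 correlated little between the pregnant and postpartum groups (r = 0.0195 over 6216 genes). Pregnant 2 held 6323 beta-class non-hormone UMIs, so this value cannot show whether the numbers pair libraries. Without the library block, beta minus alpha called 11 genes, with Cish at 1.60 (limma adjusted p = 0.12).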
